A study of Mus musculus with 6 samples.

Results

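The nuclear genes for subunits of respiratory complexes I to IV were followed by RNA-seq of the corneal endothelium of mice. The members were a fixed list of 56 gene symbols, 33 for complex I, 4 for complex II, 8 for complex III and 11 for complex IV, out of 57180 gene identifiers in the files. The rule used no measured value, but the list was chosen with earlier results of these data known. All 56 were found and passed the filter on low counts. Ndufa4, named after complex I, was placed with complex IV, where its protein is now counted.

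The study compared 3 libraries labelled Col8a2Q455K/Q455K/Tcf4+/-, called Tcf4+/- here, with 3 labelled Col8a2Q455K/Q455K, called Col8a2. Both groups were homozygous for the same mutant allele of Col8a2, a collagen gene of Descemet membrane, and mice with it serve as a model of Fuchs dystrophy of the corneal endothelium (FECD). In the Tcf4+/- mice 1 allele of Tcf4, which codes for a basic helix-loop-helix transcription factor, was knocked out as well. No group had a wild-type Col8a2, neither group was treated, and the labels state neither the age of the mice, how the Tcf4 allele was made, nor whether corneas were pooled.

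The corneal endothelium is a single layer of cells, rich in mitochondria, that keeps the cornea clear by ion transport driven by Na,K-ATPase. Complexes I and II pass electrons from NADH and succinate to ubiquinone, complex III passes them to cytochrome c, and complex IV passes them to oxygen, while complexes I, III and IV move protons across the inner membrane. Most subunits are encoded in the nucleus, made in the cytosol and imported, and the rest come from mitochondrial DNA, so an enzyme is assembled from the products of both genomes. Loss of function of mitochondria has been described in FECD.

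The promoters of these genes are shown first, since subunit genes of all complexes are known for sharing a few binding motifs, among them those of NRF-1, of ETS factors such as GABP, and of YY1. RefSeq promoter windows of build GRCm38.p6, from 250 bases before to 50 after the start of the gene, matched 46 of the 56 members. Ndufa2, Ndufb9, Ndufs1, Sdhc, Uqcrc2, Uqcrb, Uqcrq, Cyc1, Cox4i1 and Cox6c were not matched. Of the following 4 windows, each 300 bases long, 1 is of the member of smallest p in the comparison (Ndufc1), 2 are of core subunits (Ndufs3 of complex I and Sdhb of complex II) and 1 holds both the NRF-1 and the ETS letters (Cox6a1). Capitals mark the motifs, and each line runs 5′ to 3′ on the strand of the gene. The windows lie at chr3:51408906-51409205 on the minus strand, chr2:90904672-90904971 on the minus strand, chr4:140961021-140961320 on the plus strand and chr5:115348909-115349208 on the minus strand, in the order of the lines.
Ndufc1: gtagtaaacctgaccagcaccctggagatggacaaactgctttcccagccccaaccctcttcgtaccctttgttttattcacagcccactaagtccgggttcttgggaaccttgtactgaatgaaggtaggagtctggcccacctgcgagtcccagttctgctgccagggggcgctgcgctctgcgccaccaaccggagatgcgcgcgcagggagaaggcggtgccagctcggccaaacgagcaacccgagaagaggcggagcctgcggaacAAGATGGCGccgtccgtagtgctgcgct
Ndufs3: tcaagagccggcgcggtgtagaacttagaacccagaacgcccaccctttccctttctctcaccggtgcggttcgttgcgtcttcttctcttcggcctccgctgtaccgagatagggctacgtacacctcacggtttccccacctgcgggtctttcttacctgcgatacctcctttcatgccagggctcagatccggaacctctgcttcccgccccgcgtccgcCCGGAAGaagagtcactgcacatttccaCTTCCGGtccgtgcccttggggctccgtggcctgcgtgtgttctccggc
Sdhb: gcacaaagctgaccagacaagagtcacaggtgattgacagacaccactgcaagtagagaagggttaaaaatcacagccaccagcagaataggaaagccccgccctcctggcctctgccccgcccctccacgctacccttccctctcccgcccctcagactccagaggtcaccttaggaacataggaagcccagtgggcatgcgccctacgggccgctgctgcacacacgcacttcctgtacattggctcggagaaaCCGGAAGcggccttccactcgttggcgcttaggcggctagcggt
Cox6a1: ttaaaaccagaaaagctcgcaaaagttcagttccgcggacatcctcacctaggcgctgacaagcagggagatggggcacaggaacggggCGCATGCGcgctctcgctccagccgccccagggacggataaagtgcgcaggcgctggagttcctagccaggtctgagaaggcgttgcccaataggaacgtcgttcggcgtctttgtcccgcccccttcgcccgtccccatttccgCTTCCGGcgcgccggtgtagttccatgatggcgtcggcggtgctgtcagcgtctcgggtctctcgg

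The motifs were searched as exact letters on both strands, CGCATGCG for the NRF-1 core, which reads the same on both strands, CCGGAAG for ETS factors and AAGATGGCG for YY1. The letters of the YY1 motif can overlap those of either of the others. The ETS letters stood in 10 of the 46 matched members (21.7%), against 9.93% of 27025 genes with a window. The NRF-1 letters stood in 4 members (8.7%), Ndufa8, Ndufa11, Uqcrc1 and Cox6a1, against 2.07% of all genes. The YY1 letters stood in 5 members (10.9%), against 1.64% of all genes. The 5 were Ndufc1, Ndufa9, Ndufs4, Ndufs6 and Ndufs7, all of complex I, to which 30 of the 46 matched members belong. TATAAA, the letters of a TATA box, stood in 4 members (8.7%), against 15.67% of all genes, and the median GC content was 58.6% in the members and 52.7% in all windows. In 28 members none of the NRF-1, ETS or YY1 letters was found, which says only that these letters are not in this window.

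The libraries held between 30344161 and 54265479 estimated counts each, and 17639 genes were tested. Tcf4 itself was at 440, 599 and 373 CPM (counts scaled to library size with TMM factors) in the libraries labelled Tcf4+/-, against 313, 470 and 430 CPM in the Col8a2 libraries. The groups overlapped, so the level of Tcf4 does not separate the labels, and which part of the gene the knockout removes is not given in the sources used here. Markers of corneal endothelium (14 matched) were detected in every library, with sums from 13850 to 28892 CPM in the Tcf4+/- group and from 18330 to 28506 CPM in the Col8a2 group. The libraries also held markers of other cells, with 0 called by edgeR. Stromal keratocyte markers were fitted higher in the Tcf4+/- group in 6 of 7 tested. They summed to 12593, 19994 and 15162 CPM in the Tcf4+/- libraries and 17177, 11527 and 8790 CPM in the Col8a2 libraries. In Tcf4+/- replicate 3 their sum was above that of the endothelial markers. That order depends on Aldh3a1, at 4976 CPM in this library, without which the keratocyte sum would be the lower. Corneal epithelium markers were fitted higher in 4 of 7. Their sums were 6910, 2387 and 5010 CPM in the Tcf4+/- libraries and 6680, 3042 and 4232 CPM in the Col8a2 libraries. Lens markers were fitted higher in the Tcf4+/- group in 11 of 11 tested (8 with an unadjusted p under 0.05), with sums of 88.7, 4068 and 10781 CPM in the Tcf4+/- libraries and 613, 33.9 and 278 CPM in the Col8a2 libraries. Erythroid markers were fitted higher in 5 of 5 (median log2 fold change 1.56, 3 with an unadjusted p under 0.05), with sums of 6127, 1362 and 2943 CPM in the Tcf4+/- libraries and 1296, 531 and 1967 CPM in the Col8a2 libraries. Tcf4+/- replicate 3 stood apart, with the lowest total, the lowest sum of endothelial markers (13850 CPM) and the highest sums of lens and photoreceptor markers (photoreceptor 10188 CPM, against 2349 to 4844 CPM in the other libraries). Xist, which marks female cells, was at 1.22 CPM in Tcf4+/- replicate 3 and 0.51 CPM in Col8a2 replicate 1, against 46.0 to 79.9 CPM in the other 4 libraries, and the Y-linked gene Ddx3y was at 34.2 and 37.7 CPM in these 2 libraries and at most 0.0202 CPM in the others. In such bulk samples, fewer cells of a type and less RNA per cell cannot be told apart.

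No nuclear subunit gene of complexes I to IV passed the test between the groups. Of the 56 members, 0 passed the threshold of an adjusted p of 0.05 in edgeR's quasi-likelihood test, 0 had an unadjusted p under 0.05, and 0 were called by DESeq2 or limma voom. The background was as sparse. Over all genes tested, edgeR called 0 (0.0%) in either direction, and in the Tcf4+/- group 250 genes (1.42%) were higher and 177 (1.0%) lower at an unadjusted p under 0.05. DESeq2, which gave an adjusted p for 18353 genes, called 79 higher (0.43%) and 31 lower (0.169%), and limma voom called 0 (0.0%). In all 56 members the ranges of the groups overlapped, against a background of 799 genes (4.53%) in which every Tcf4+/- library was higher and 630 (3.57%) in which every one was lower. The adjusted p was 0.99988 for each member.

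The fitted differences were small and mostly of 1 sign. Log2 fold changes (Tcf4+/- over Col8a2) ran from -0.17 to 0.71 with a median of 0.19, and 48 members were fitted higher and 8 lower. That is 85.7% fitted higher, against 50.1% of all genes tested, whose median was 0.00. The share depended on transcript length. Among nuclear protein-coding genes of at least 10 CPM, 93.6% of those under 600 bases were fitted higher, as were 23 of 24 members of that length. At 600 to 900 bases 71.6% of such genes were fitted higher. At 1200 to 1800 bases it was 44.6%, and 9 of the 12 members over 1200 bases were fitted higher. Standard errors were 0.25 to 0.57, and the adjusted p of every member was far above the threshold. The 95% intervals of 54 members excluded a 2-fold fall and those of 32 excluded a 2-fold rise. With both bounds together, 31 members were held within 2-fold either way.

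**Figure D1:**
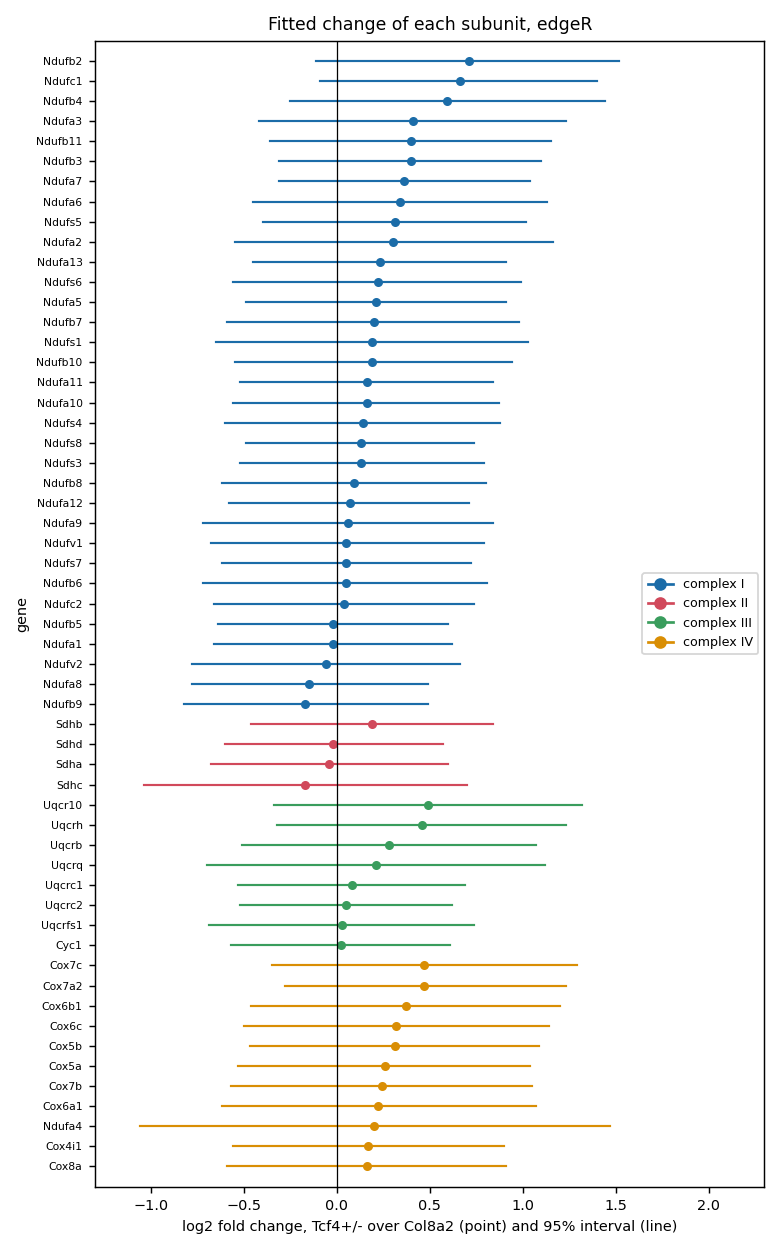
Fitted log2 fold change (Tcf4+/- over Col8a2, horizontal axis) of each of the 56 subunit genes with its 95% interval (line), sorted within each complex and coloured by complex. Points run from -0.17 to 0.71, 48 lie above 0, and every interval includes 0.

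Much of the excess sat in 1 library. Tcf4+/- replicate 3 held the highest CPM of 42 members, Col8a2 replicate 1 of 8, Tcf4+/- replicate 1 of 5 and Col8a2 replicate 3 of 1. The lowest value stood in Col8a2 replicate 2 for 33 members, in Tcf4+/- replicate 2 for 16, in Col8a2 replicate 3 for 6 and in Tcf4+/- replicate 1 for 1. Each group thus held a library in which these genes were high and one in which they were low. The members took 0.872%, 0.797% and 1.297% of counts in the Tcf4+/- libraries and 1.052%, 0.738% and 0.812% in the Col8a2 libraries. Without Tcf4+/- replicate 3 the median log2 fold change of the members was -0.05, with 20 fitted higher and 36 lower. Without Col8a2 replicate 1 it was 0.37, and without Tcf4+/- replicate 2 it was 0.35, each with 53 fitted higher and 3 lower. Leaving out Tcf4+/- replicate 1, Col8a2 replicate 2 or Col8a2 replicate 3 gave medians of 0.27, 0.06 and 0.11.

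The 2 libraries with the highest summed levels were also the 2 with little Xist. Within that pair the members summed to 13287 CPM in Tcf4+/- replicate 3 and 10819 CPM in Col8a2 replicate 1. Among the 4 libraries with Xist they summed to 8854 and 7860 CPM in the Tcf4+/- group, against 6951 and 8229 CPM in the Col8a2 group, and these overlapped. With the Xist pattern as a term of the fit, which was added after the data had been seen, the median was 0.16 with 0 members called. In that fit Ndufb2 and Ndufc1 had unadjusted p of 0.0228 and 0.035 by edgeR, with an adjusted p of 0.999 for each. They were the only 2 of the 56 members under 0.05. In the 4 libraries with Xist alone the median was 0.13, with 48 members fitted higher and 8 lower. The part that sex, lens, photoreceptor or erythroid RNA and depth have in the height of Tcf4+/- replicate 3 was not tested.

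**Figure D2:**
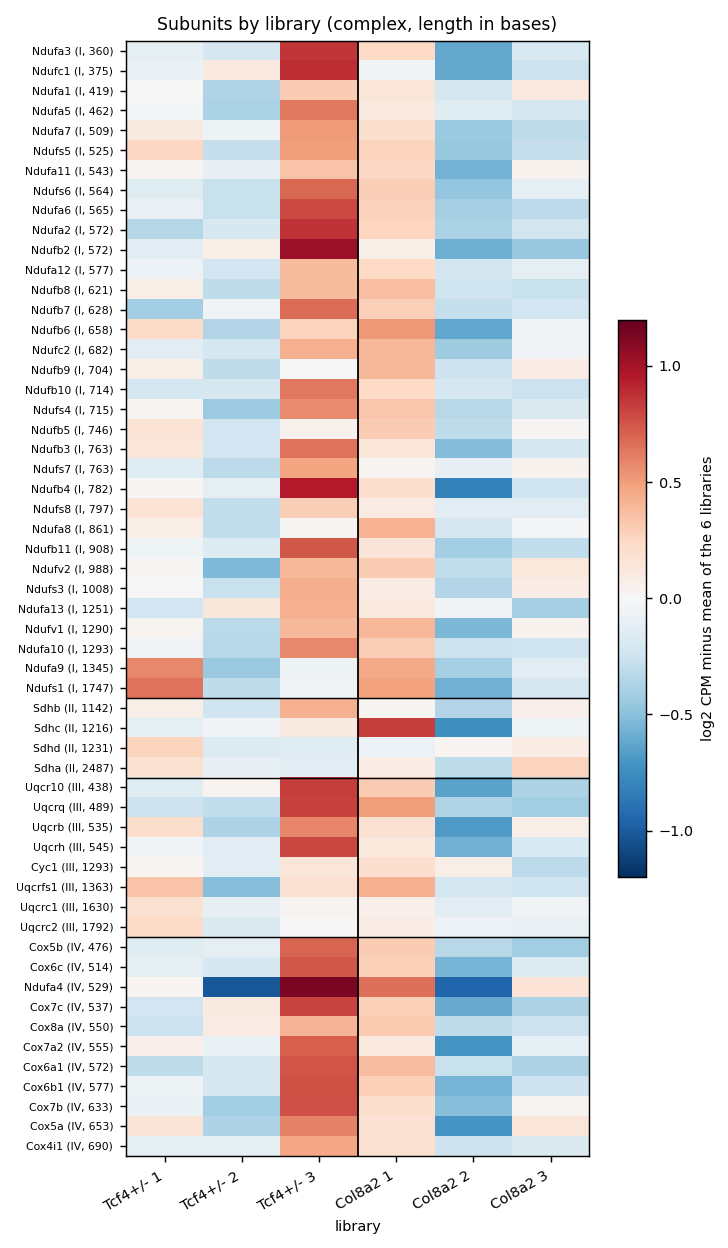
Log2 CPM of each subunit gene minus its mean over the 6 libraries (colour), with genes in rows ordered by complex and length and libraries in columns, Tcf4+/- left of the line and Col8a2 right of it. Tcf4+/- replicate 3 is the highest library for 42 of 56 genes and Col8a2 replicate 2 the lowest for 33.

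Complex I, the NADH dehydrogenase, is the largest of the enzymes. Its 33 members summed to 4386, 3841 and 6358 CPM in the Tcf4+/- libraries and 5263, 3513 and 4034 CPM in the Col8a2 libraries, or 4861 ± 1324 against 4270 ± 898 CPM (mean ± SD, n = 3 each). The groups overlapped, and the median log2 fold change was 0.16, with 28 fitted higher.

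The 6 core subunits lie on the path from NADH to ubiquinone, and most of them carry the flavin or iron-sulfur clusters. Their summed level was 784, 596 and 983 CPM in the Tcf4+/- libraries, against 872, 622 and 767 CPM in the Col8a2 libraries. Ndufv1, the flavoprotein that takes the electrons from NADH, was at 143, 112 and 183 CPM in the Tcf4+/- libraries and 184, 96.1 and 144 CPM in the Col8a2 libraries, with a log2 fold change of 0.05 ± 0.33 (SE). The lowest and the highest library of this gene therefore both belonged to the Col8a2 group. Ndufs1, the largest iron-sulfur subunit, was at 68.0, 35.2 and 42.0 CPM in the Tcf4+/- libraries and 60.7, 29.0 and 37.6 CPM in the Col8a2 libraries, a log2 fold change of 0.19 ± 0.38. Ndufv2, an iron-sulfur subunit beside Ndufv1, was at 145 ± 44.1 CPM in the Tcf4+/- group and 151 ± 31.0 CPM in the Col8a2 group, a log2 fold change of -0.06 ± 0.32.

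The other 3 core genes code for subunits of the peripheral arm nearer the membrane. Ndufs3 was at 117 ± 29.6 CPM in the Tcf4+/- group and 106 ± 17.9 CPM in the Col8a2 group. Ndufs7, which lies next to the quinone site, was at 191 ± 57.9 CPM in the Tcf4+/- group and 185 ± 9.99 CPM in the Col8a2 group. Ndufs8, which carries iron-sulfur clusters, was at 140 ± 28.5 CPM in the Tcf4+/- group and 128 ± 12.2 CPM in the Col8a2 group. Their log2 fold changes were 0.13, 0.05 and 0.13, each smaller than its standard error of 0.27 to 0.30.

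The files give a length for each gene in each library, weighted by the estimated isoform shares, and 11 members had the same length to the base in all libraries. The length of 5 members differed by more than 1.2-fold between libraries, and 2 of them were core subunits of complex I. Ndufs1 was given 2234, 1681 and 1585 bases in the Tcf4+/- libraries and 1726, 1338 and 1917 bases in the Col8a2 libraries. Ndufv1 was given 1322, 1269 and 911 bases in the Tcf4+/- libraries, against 1356, 1442 and 1439 bases in the Col8a2 libraries, so that every Tcf4+/- library was given the shorter mixture. The lengths of Ndufs8 and Uqcrc1 were also shorter in every Tcf4+/- library, by smaller margins, and such separation was not counted over all genes. With effective length as an offset, the log2 fold change of Ndufv1 was 0.41 (unadjusted p = 0.323 by edgeR) in place of 0.05.

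The 27 other members of complex I are accessory subunits, which surround the core and are needed for its assembly and stability. Here were the members of smallest unadjusted p. Ndufc1, a small subunit of the membrane arm, was at 131, 150 and 255 CPM in the Tcf4+/- libraries, against 134, 90.2 and 116 CPM in the Col8a2 libraries. Its log2 fold change was 0.66 ± 0.33 (unadjusted p = 0.077 by edgeR), and the groups met where Tcf4+/- replicate 1 (131 CPM) lay just under Col8a2 replicate 1 (134 CPM). Ndufb2, also of the membrane arm, was at 104, 120 and 232 CPM in the Tcf4+/- libraries and 120, 75.7 and 83.3 CPM in the Col8a2 libraries, a log2 fold change of 0.71 ± 0.37 (unadjusted p = 0.083). In both genes Tcf4+/- replicate 3 stood far above the other 5 libraries. Ndufb4, the third of the membrane arm in order of fold change, was at 100, 91.5 and 192 CPM in the Tcf4+/- libraries and 114, 56.7 and 83.8 CPM in the Col8a2 libraries, a log2 fold change of 0.59 ± 0.38. Leaving out Tcf4+/- replicate 1 gave Ndufb2 and Ndufc1 an unadjusted p just under 0.05, 0.0473 for Ndufb2 and 0.0499 for Ndufc1. Neither gene passed the adjusted threshold there. Leaving out Tcf4+/- replicate 3 gave log2 fold changes of 0.26 for Ndufb2 (unadjusted p = 0.404) and 0.30 for Ndufc1 (unadjusted p = 0.303).

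The accessory subunits fitted lowest were Ndufb9 and Ndufa8. Ndufb9 was at 223, 172 and 212 CPM in the Tcf4+/- libraries and 277, 179 and 226 CPM in the Col8a2 libraries, a log2 fold change of -0.17 ± 0.29. Ndufa8 was at 148, 114 and 141 CPM in the Tcf4+/- libraries and 187, 122 and 138 CPM in the Col8a2 libraries, a log2 fold change of -0.15 ± 0.28. In both, Col8a2 replicate 1 was the highest library and Tcf4+/- replicate 2 the lowest. By family, the median log2 fold change was 0.18 over the 12 Ndufa genes, 0.19 over the 10 Ndufb genes, 0.35 over Ndufc1 and Ndufc2 and 0.22 over Ndufs4, Ndufs5 and Ndufs6, and the families were not tested against each other.

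**Figure D3:**
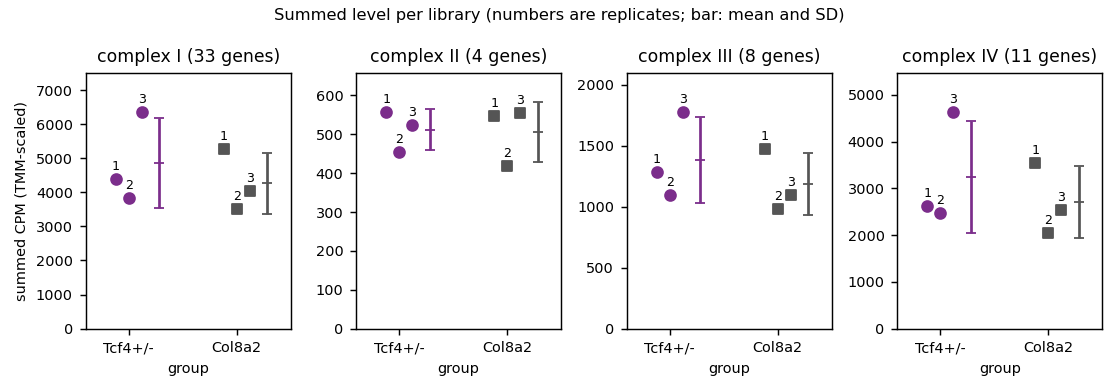
Summed TMM-scaled CPM (vertical axis, from 0) of the members of each complex in each library (points, numbered by replicate), with Tcf4+/- left and Col8a2 right and the mean and SD beside them. In complexes I, III and IV, Tcf4+/- replicate 3 is the highest library, and in no complex do the groups separate.

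Complex II, succinate dehydrogenase, belongs to the citric acid cycle as well and is the only one of the 4 with every subunit encoded in the nucleus. Its members summed to 557.1, 454.5 and 525.3 CPM in the Tcf4+/- libraries and 546.9, 417.9 and 555.6 CPM in the Col8a2 libraries, or 512 ± 52.5 against 507 ± 77.1 CPM. Tcf4+/- replicate 3 was not the highest library here, and the median log2 fold change was -0.03. The members of complex II are long, with mean lengths of 1142 to 2487 bases, and the part of length was not tested. Sdha, the flavoprotein that oxidises succinate, was at 230, 189 and 185 CPM in the Tcf4+/- libraries and 215, 164 and 244 CPM in the Col8a2 libraries, a log2 fold change of -0.04 ± 0.29. Sdhb, the iron-sulfur subunit whose promoter is printed above, was at 146, 118 and 187 CPM in the Tcf4+/- libraries and 141, 109 and 145 CPM in the Col8a2 libraries, a log2 fold change of 0.19 ± 0.29. It was the one gene of the complex fitted higher.

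The membrane anchors Sdhc and Sdhd hold the heme and the quinone site. Sdhc was at 41.3, 43.4 and 48.0 CPM in the Tcf4+/- libraries and 79.2, 26.8 and 43 CPM in the Col8a2 libraries, a log2 fold change of -0.17 ± 0.39. The spread of the Col8a2 group came from its replicates 1 and 2, which lay on either side of all Tcf4+/- libraries, and without Col8a2 replicate 1 the log2 fold change was 0.34. Sdhd was at 140, 104 and 105 CPM in the Tcf4+/- libraries and 111, 118 and 124 CPM in the Col8a2 libraries, a log2 fold change of -0.02 ± 0.26.

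Complex III, the cytochrome bc1 complex, passes electrons from ubiquinol to cytochrome c. Its 8 members summed to 1286, 1094 and 1776 CPM in the Tcf4+/- libraries and 1472, 984 and 1097 CPM in the Col8a2 libraries, a mean of 1385 ± 351 against 1184 ± 255 CPM. All 8 were fitted higher, with a median log2 fold change of 0.15. The median log2 fold change was 0.04 over the 4 longer genes, for the redox proteins and the core proteins, and 0.37 over the 4 genes for small accessory subunits. Without Tcf4+/- replicate 3 these medians were 0.00 and 0.06, and the difference between them was not tested.

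Uqcrc1, a core protein related to mitochondrial processing peptidases, was at 295, 243 and 265 CPM in the Tcf4+/- libraries and 270, 237 and 252 CPM in the Col8a2 libraries. Its highest library was 1.25-fold above its lowest, the narrowest range of any member, and its log2 fold change was 0.08 ± 0.27. Uqcrc2, its partner, was at 69.5 ± 9.80 CPM in the Tcf4+/- group and 67.1 ± 4.70 CPM in the Col8a2 group. Cyc1, cytochrome c1, was at 115, 104 and 125 CPM in the Tcf4+/- libraries and 130, 119 and 91.3 CPM in the Col8a2 libraries, a log2 fold change of 0.02 ± 0.26. The Rieske protein gene Uqcrfs1 was at 105, 58.1 and 94.2 CPM in the Tcf4+/- libraries and 111, 71.7 and 70.2 CPM in the Col8a2 libraries, a log2 fold change of 0.03 ± 0.32.

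Among the small subunits, Uqcr10 was at 156, 176 and 306 CPM in the Tcf4+/- libraries and 212, 110 and 133 CPM in the Col8a2 libraries, a log2 fold change of 0.49 ± 0.37. Uqcrh, the hinge protein that sits by cytochrome c1, was at 148, 137 and 264 CPM in the Tcf4+/- libraries and 165, 101 and 133 CPM in the Col8a2 libraries, a log2 fold change of 0.46 ± 0.35. In both genes the Tcf4+/- and Col8a2 groups overlapped through Col8a2 replicate 1, which was above Tcf4+/- replicates 1 and 2.

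Complex IV, cytochrome c oxidase, had the largest median of the 4 complexes, with a log2 fold change of 0.26 and all 11 members fitted higher. Its members are short, with mean lengths of 476 to 690 bases, against 1142 to 2487 bases in complex II. The medians by complex were not adjusted for length, whose relation to the differences is described below. The nuclear subunits of complex IV surround the catalytic core, which is encoded by mitochondrial DNA. They summed to 2625, 2470 and 4629 CPM in the Tcf4+/- libraries and 3538, 2036 and 2542 CPM in the Col8a2 libraries, or 3241 ± 1204 against 2706 ± 764 CPM. Tcf4+/- replicate 3 was the highest library for all 11, and without it the median was -0.03, with 2 fitted higher and 9 lower.

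Cox4i1, the largest nuclear subunit and a site of regulation by ATP, was at 464, 463 and 692 CPM in the Tcf4+/- libraries and 570, 422 and 445 CPM in the Col8a2 libraries, a log2 fold change of 0.17 ± 0.32. Cox5a, which lies on the matrix side, was at 140, 97.3 and 190 CPM in the Tcf4+/- libraries and 142, 76.9 and 139 CPM in the Col8a2 libraries, a log2 fold change of 0.26 ± 0.35. Cox8a, a single-span subunit, was at 373, 476 and 592 CPM in the Tcf4+/- libraries and 553, 362 and 374 CPM in the Col8a2 libraries, a log2 fold change of 0.16 ± 0.33. The same libraries were high in all 3, Tcf4+/- replicate 3 and then Col8a2 replicate 1. Cox5b, Cox6a1, Cox6b1, Cox6c and Cox7b, which code for further subunits around the core, had log2 fold changes between 0.22 and 0.37 with the same library highest.

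The smallest p of the complex belonged to Cox7a2 and Cox7c, both for short subunits of the membrane part. Cox7a2 was at 169, 153 and 266 CPM in the Tcf4+/- libraries and 175, 99.1 and 149 CPM in the Col8a2 libraries (log2 fold change 0.47 ± 0.34, unadjusted p = 0.191). Cox7c was at 151, 190 and 309 CPM in the Tcf4+/- libraries and 215, 116 and 137 CPM in the Col8a2 libraries (log2 fold change 0.47 ± 0.37, unadjusted p = 0.228). Ndufa4 was the most variable member, at 391, 190 and 844 CPM in the Tcf4+/- libraries and 608, 199 and 431 CPM in the Col8a2 libraries, and its highest library was 4.45-fold above its lowest. Its log2 fold change was 0.20 ± 0.57. Only Ndufb2 (3.06-fold) and Ndufb4 (3.39-fold) also ranged over more than 3-fold, and the median range over the members was 2.01-fold.

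The levels per length spanned more than the differences between libraries. Mean TPM (an abundance unit that divides by transcript length) over the 6 libraries ran from 30.3 for Ndufs1 to 1349 for Cox8a, a 44.5-fold range. By complex the median TPM of members was 289 for I, 107 for II, 327 for III and 716 for IV, and 49 of the 56 exceeded 100 TPM. Together the members took 1.75% to 2.66% of all TPM in a library. Across the 56 genes, longer genes had lower TPM, with a Pearson r of -0.847 between log2 TPM and log2 length and a Spearman rho of -0.853. This is a description across genes that share the same libraries and are not independent. TPM divides the counts by effective length, so part of this relation and of the 44.5-fold range is built in by the divisor.

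Length also ordered the fitted differences. The 28 members shorter than the median of 656 bases gave 0.29 as their median log2 fold change, with 27 fitted higher, and the 28 longer ones 0.06, with 21 fitted higher. Tcf4+/- replicate 3 held the highest value of all 28 short members and of 14 of the 28 long ones. Without it the medians were -0.03 and -0.05. Across the members the log2 fold change was lower in longer genes, with an r of -0.513 and a rho of -0.572, a description across 56 genes of the same libraries. With effective length as offset r was -0.208 and rho -0.296, and on log2(TPM + 1) r was -0.161 and rho -0.223.

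A weaker relation to length was present over all genes. Among 9825 nuclear protein-coding genes of at least 10 CPM, the members included, r was -0.183 and rho -0.171, and the median log2 fold change was 0.41 for the 157 genes under 600 bases, where the 24 members of that length had 0.31. It was 0.16 for genes of 600 to 900 bases (members 0.13), 0.05 at 900 to 1200 bases (members 0.16) and -0.04 at 1200 to 1800 bases (members 0.05), and -0.11 at 3600 bases or more, where no member lies. In these 4 classes the medians of the members and of all genes lay within 0.11 of each other on the log2 scale. Without Tcf4+/- replicate 3 the median of all genes under 600 bases was 0.00.

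**Figure D4:**
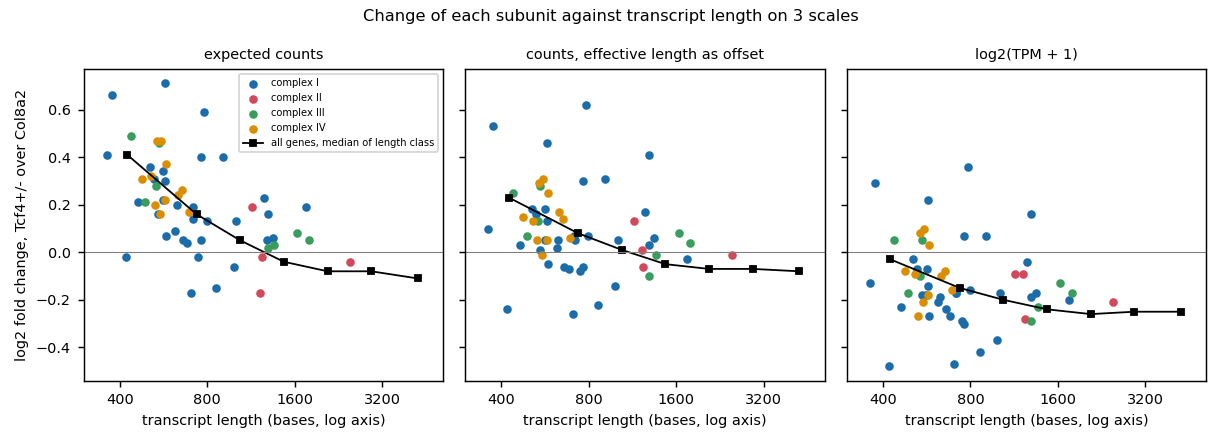
Log2 fold change (Tcf4+/- over Col8a2, vertical axis) of each subunit gene (points, coloured by complex) against transcript length (log axis) on expected counts, on counts with effective length as offset and on log2(TPM + 1), with the median of all nuclear protein-coding genes by length class (black squares). Under 600 bases the black line stands at 0.41, 0.23 and -0.03 on the 3 scales.

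The relation to length differed between libraries. Across the members, the correlation of length with the deviation from the mean of the 6 libraries was r = 0.50, -0.0551 and -0.699 in the Tcf4+/- libraries and -0.0111, 0.377 and 0.296 in the Col8a2 libraries. Short members were thus relatively high in Tcf4+/- replicate 3 and relatively low in Tcf4+/- replicate 1 and Col8a2 replicates 2 and 3, while Tcf4+/- replicate 2 and Col8a2 replicate 1 showed next to no slope. Set against its mean over the 6 libraries on the log2 scale, a member under 600 bases was at a median of 0.75 in Tcf4+/- replicate 3 (all genes of that length 0.86), 0.27 in Col8a2 replicate 1 (all genes 0.23) and -0.51 in Col8a2 replicate 2 (all genes -0.54). The 11 members of 1200 to 1800 bases were at 0.11 in Tcf4+/- replicate 3 (all genes 0.00), 0.30 in Col8a2 replicate 1 (all genes 0.09) and -0.21 in Col8a2 replicate 2 (all genes -0.02), farther from 0 than other genes of that length in each. The summed CPM of the 24 members under 600 bases was 2.54, 2.90 and 4.43 times that of the 12 members over 1200 bases in the Tcf4+/- libraries, and 3.15, 2.43 and 2.77 times in the Col8a2 libraries. The count-weighted mean length of protein-coding genes was 2506, 2574 and 2162 bases in the Tcf4+/- libraries and 2401, 2667 and 2531 bases in the Col8a2 libraries. It was shortest in Tcf4+/- replicate 3, where the ratio of short to long members was highest, and longest in Col8a2 replicate 2, where the ratio was lowest. Between these extremes the orders differed, as Tcf4+/- replicate 2 had both a higher ratio and a longer mean length than Tcf4+/- replicate 1. The part of this mean length in the level of the members was not tested.

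**Figure D5:**
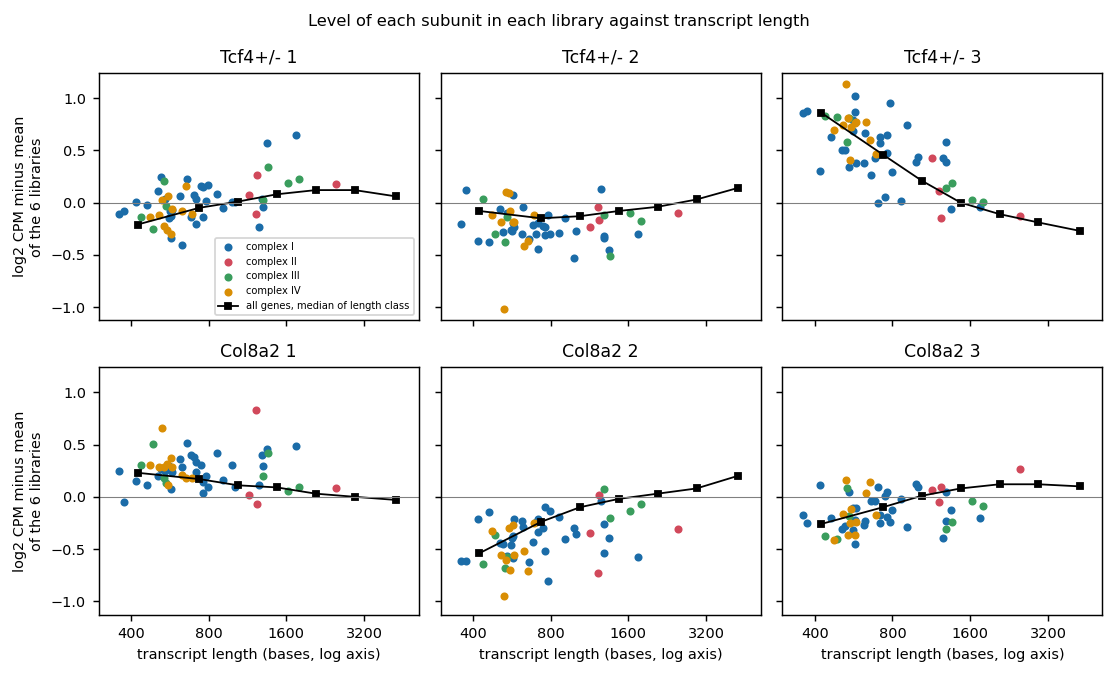
Log2 CPM of each subunit gene minus its mean over the 6 libraries (vertical axis) against transcript length (log axis), 1 panel per library with Tcf4+/- above and Col8a2 below, and the median of all nuclear protein-coding genes by length class (black squares). Members under 600 bases have a median of 0.75 in Tcf4+/- replicate 3 (black line 0.86) and -0.51 in Col8a2 replicate 2 (black line -0.54), and at 1200 to 1800 bases the members leave the line in Col8a2 replicate 1 (0.30 against 0.09).

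The scale set the sign of the common difference. The difference between length and effective length was 240.6, 154.8 and 150.1 bases in the Tcf4+/- libraries and 210.9, 233.7 and 234.0 bases in the Col8a2 libraries, so a short gene was divided by a larger effective length in Tcf4+/- replicates 2 and 3. With effective length as an offset of the counts, the median of the members was 0.06, with 41 fitted higher and 15 lower. On log2(TPM + 1) it was -0.17, with 11 fitted higher and 45 lower, where the median of all genes was -0.15. Mitochondrially encoded tRNA genes took 0%, 15.61% and 15.77% of TPM in the Tcf4+/- libraries and 0% in every Col8a2 library, and with TPM rescaled without mitochondrially encoded genes the median of the members was -0.01. By TPM, the 6 core subunits of complex I summed to 1148, 807 and 1106 in the Tcf4+/- libraries and 1166, 1149 and 1174 in the Col8a2 libraries. The sum was lower in every Tcf4+/- library, although by 1 TPM at the nearest (1148 against 1149), whereas their CPM sums overlapped. Of the sets of members by complex, family, class or length, this was the only one to separate on TPM. These TPM sums were not rescaled for the share of the mitochondrially encoded tRNA genes, so the separation is not read as a difference between the groups.

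Subunit genes of this kind have processed pseudogenes, among which reads can be shared. Of the members, 20 had at least 1 annotated copy, 31 copies in all, and 21 of the copies had counts. The copies held more than 1% of the member's own counts for Ndufs5 (30.29%), Ndufb4 (3.85%) and Ndufa12 (3.62%) alone, so these values are uncertain. With the copies' counts added, the log2 fold changes of the 3 genes were 0.33, 0.60 and 0.11, against 0.31, 0.59 and 0.07 without them.

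The rest of the pathway gave the same count of calls. Over 10 lists of related genes, 0 of 108 tested genes passed edgeR's threshold, 1 had an unadjusted p under 0.05, 6 (5.56%) were higher in every Tcf4+/- library and 3 (2.78%) lower in every one, near the background of 4.53% and 3.57%. The 3 lower ones, named after their values were seen, were Tfam, the complex III assembly factor Uqcc1 (log2 fold change -0.34) and the complex IV assembly factor Pet117, which was at most 1.87 CPM in any library. Assembly factors, which build the complexes and are not part of them, had median log2 fold changes of 0.06 for complex I (15 tested), 0.10 for complex II (4), 0.05 for complex III (6) and 0.25 for complex IV (19). Cox16, a short gene for a complex IV assembly factor, was at 24.5, 27.0 and 52.6 CPM in the Tcf4+/- libraries, all above the 19.0, 22.5 and 22.3 CPM in the Col8a2 libraries (log2 fold change 0.70 ± 0.38, unadjusted p = 0.0923). Nubpl, which delivers iron-sulfur clusters to complex I, was at 11.1, 9.63 and 2.77 CPM in the Tcf4+/- libraries and 9.90, 13.6 and 16.3 CPM in the Col8a2 libraries (log2 fold change -0.76 ± 0.60).

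Complex V, the ATP synthase, uses the proton gradient that the respiratory chain builds. Of its 15 subunit genes tested, 14 were fitted higher, with a median of 0.18. Atp5e, which codes for the small epsilon subunit, was at 171, 238 and 674 CPM in the Tcf4+/- libraries and 264, 130 and 165 CPM in the Col8a2 libraries, a log2 fold change of 0.95 ± 0.52. Electron carriers had a median of -0.04 (6 tested), and markers of the outer membrane and matrix, which are mostly longer genes, had one of -0.10 (12 tested). Hspd1, the matrix chaperonin, was at 85.3, 76.9 and 73.3 CPM in the Tcf4+/- libraries and 127, 60.9 and 113 CPM in the Col8a2 libraries (log2 fold change -0.35 ± 0.32).

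The 11 mitochondrially encoded subunits of complexes I to IV were at a median of 0.23 on the log2 scale, with 10 fitted higher. They summed to 91574, 69296 and 77697 CPM in the Tcf4+/- libraries and 86780, 59811 and 81763 CPM in the Col8a2 libraries, which overlapped. The nuclear members came to 9.67%, 11.3% and 17.1% of that sum in the Tcf4+/- libraries and 12.5%, 11.6% and 10.1% in the Col8a2 libraries. mt-Nd6, the subunit encoded on the other strand of the mitochondrial genome, was at 1357, 1720 and 1878 CPM in the Tcf4+/- libraries, all above the 1234, 858 and 1224 CPM in the Col8a2 libraries (log2 fold change 0.58 ± 0.34, unadjusted p = 0.125). The kit is not described as keeping the strand, so reads of mt-Nd6 cannot be told apart from those of transcripts on the opposite strand.

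Among regulators of mitochondrial biogenesis (14 tested, median 0.11), Tfam, which packages mitochondrial DNA and starts its transcription, was at 12, 14.1 and 15.4 CPM in the Tcf4+/- libraries, all below the 18.1, 22.9 and 27.8 CPM in the Col8a2 libraries (log2 fold change -0.73 ± 0.37, unadjusted p = 0.0779 by edgeR). The groups did not overlap, and the gene did not pass the adjusted threshold. Nrf1, which codes for the factor of the NRF-1 motif, was at 38.3, 35.5 and 71.8 CPM in the Tcf4+/- libraries and 35.0, 31.8 and 51.3 CPM in the Col8a2 libraries (log2 fold change 0.30 ± 0.36).

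The one pathway gene with an unadjusted p under 0.05 was a muscle isoform. Cox6a2, the heart and skeletal muscle form of subunit 6a, was at 10.6, 16.8 and 5.97 CPM in the Tcf4+/- libraries, all above the 2.12, 3.41 and 2.75 CPM in the Col8a2 libraries, a log2 fold change of 2.01 ± 0.65 (unadjusted p = 0.0124, adjusted p = 0.99988). Cox7a1, the muscle form of subunit 7a, was at 9.28, 9.92 and 8.37 CPM in the Tcf4+/- libraries and 5.86, 3.94 and 3.99 CPM in the Col8a2 libraries, a log2 fold change of 1.0 ± 0.58. The general forms in the list of members, Cox6a1 and Cox7a2, were far more abundant. Cox6a1 was at 257 ± 112 CPM in the Tcf4+/- group and 220 ± 65.0 CPM in the Col8a2 group, and Cox7a2 at 196 ± 61.3 CPM in the Tcf4+/- group and 141 ± 38.6 CPM in the Col8a2 group. The 7 muscle markers summed to 128, 265 and 94.2 CPM in the Tcf4+/- libraries and 11.8, 151 and 47.4 CPM in the Col8a2 libraries, with 6 of 7 fitted higher and 1 at 0 in at least 1 library. Their part in the level of the muscle isoforms was not tested.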

How the data were processed

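RNA-seq was measured in 6 libraries of corneal endothelial cells, 3 in each of 2 groups that the titles name. RNA was, per the labels' protocols, made into full-length cDNA with the SMART-Seq HT Kit and into libraries with Nextera XT. FastQC 0.12.1, fastp 0.23.2, STAR, RSEM, DESeq2 and build GRCm39 are named in the submitters' processing notes, while no source used here states the annotation release. The authors deposited expected counts, which are estimates not scaled to depth, of which 9.97% of values are not whole. The deposited TPM values were divided by effective length by the authors and scaled to the same sum. The deposited files also give length and effective length per library. Identifiers were matched to symbols in GENCODE M21 of GRCm38 (51884 matched, 5296 not), used for names, gene types and pseudogene copies alone.

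Expected counts were rounded and filtered with filterByExpr, and TMM gave scaling factors between 0.9735 and 1.063. The main test was edgeR's quasi-likelihood F-test with robust estimation (edgeR 4.0.16, R 4.3.3), and group was the only term. Benjamini-Hochberg adjustment ran over the 17639 genes tested, with a threshold of 0.05. Over all genes the biological coefficient of variation was 0.744, and log2 fold changes had a median standard error of 0.54. CPM are TMM-scaled, and deviations of all genes use log2 CPM with 2 as prior count. The scripts were tested on simulated counts. Alternatives were DESeq2 1.42.0, limma 3.58.1 on voom weights or on log2(TPM + 1), other scalings and filters, length and pseudogene corrections, leaving out each library and the replicate number as a block, and, added after the data were seen, the Xist pattern. Copies were transcripts of annotated pseudogenes of at least 90% identity over 200 bases.

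Members and gene lists were chosen with earlier results of these data known. Genes named singly were the catalytic core subunits with Uqcrc1, Cox4i1 and Cox5a, the 2 of smallest p in each direction per complex, the 3 of highest and of lowest TPM and, in each related list, the 2 of smallest p, from which a part is shown. Ndufb4, Ndufs5, Ndufa12, Nrf1, Xist, Ddx3y and genes named for a motif were added. List medians carry no p. The labels do not tie libraries to separate animals, so a p-value reflects only how these libraries vary, which may be technical in part. No exact permutation p below 0.1 can be had from 3 against 3 libraries.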

Additional observations from a re-analysis of the deposited data

How the results depend on the processing

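Under 21 alternative settings, 0 of the 56 members were called, and 0 of 546 values of the 26 members named by rule passed the threshold (lowest adjusted p 0.774). Of these 546 values 473 kept their sign and 73 did not, and 7 members kept it throughout. The replicate numbers did not pair the libraries, with correlations of -0.0237, 0.139 and -0.0154 between same-numbered libraries, and with a replicate block the median of the members was 0.16 with 0 called. DESeq2 called 79 genes higher and 31 lower over all genes.

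On log2(TPM + 1) the median of the members was -0.17, and the log2 fold change was -0.27 for Ndufa4, -0.20 for Ndufs1, -0.17 for Ndufs3, -0.30 for Ndufs7, -0.16 for Ndufs8, -0.09 for Sdhb, -0.13 for Uqcrc1, -0.17 for Uqcrc2, -0.23 for Uqcrfs1, -0.29 for Cyc1, -0.16 for Cox4i1, -0.08 for Cox5a and -0.21 for Cox8a. With TPM rescaled without mitochondrially encoded genes it was -0.11 for Ndufa4, -0.05 for Ndufs1, -0.02 for Ndufs3, -0.14 for Ndufs7, -0.01 for Ndufs8, 0.06 for Sdhc, -0.02 for Uqcrc2, -0.08 for Uqcrfs1, -0.14 for Cyc1, -0.01 for Cox4i1 and -0.05 for Cox8a. With effective length as offset it was -0.03 for Ndufs1, -0.06 for Ndufs7, 0.01 for Sdhc, -0.01 for Uqcrfs1, -0.10 for Cyc1 and -0.01 for Cox8a. In the 4 libraries with Xist it was -0.12 for Ndufa4, 0.01 for Ndufa8, -0.01 for Ndufs3, -0.21 for Ndufs7, 0.04 for Sdha, 0.28 for Sdhc and 0.01 for Sdhd. With upper-quartile scaling it was 0.01 for Ndufv2 and Sdha and 0.04 for Sdhd. Sdhd was at 0.02 with a mean of at least 5 CPM and 0.01 among protein-coding nuclear genes alone, and Cyc1 at -0.00 without scaling factors. The cause of these shifts was not tested.

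Leaving out each library in turn gave 0 to 2 genes called higher and 0 to 2 called lower over all genes, both reached without Col8a2 replicate 3. The log2 fold change then ran from -0.52 to 0.60 for Ndufa4, -0.27 to 0.04 for Ndufa8, -0.14 to 0.54 for Ndufs1, -0.09 to 0.30 for Ndufs3, -0.23 to 0.22 for Ndufs7, -0.00 to 0.30 for Ndufs8, -0.16 to 0.28 for Ndufv1 and -0.30 to 0.16 for Ndufv2. It ran from -0.19 to 0.09 for Sdha, -0.01 to 0.35 for Sdhb, -0.46 to 0.34 for Sdhc, -0.17 to 0.07 for Sdhd, -0.06 to 0.16 for Uqcrc2, -0.15 to 0.27 for Uqcrfs1, -0.11 to 0.13 for Cyc1, -0.06 to 0.31 for Cox4i1, -0.02 to 0.48 for Cox5a and -0.03 to 0.38 for Cox8a. The lowest count of any member in a library was 1245. The parts of depth and of the spread between libraries in the width of the intervals were not tested.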
